A study of Mus musculus with 5 samples.

Results

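The axon guidance ligands and receptors measured here were the semaphorins of classes 3 to 7 and their plexin receptors, the ephrins and Eph receptors, the Slits and Robos, and the netrins with their Unc5 receptors. They were chosen by gene name alone, and 68 of the 33003 gene names on the array, lincRNA probes left out, qualified. Of these, 66 are ligand or receptor genes, 35 of them ligands and 31 receptors, and 2 (Plxna4os1 and Plxna4os2) are opposite-strand transcripts of Plxna4. The study compared liver sinusoidal endothelial cells (LSECs), the specialized lining of the hepatic capillaries, with tumor endothelial cells (TECs) of hepatoma-bearing mice. There were 5 single-color arrays, 1 for each of LSEC, HAK-1B TEC, Hepa1-6 TEC, KYN-2 TEC and cultured Hepa1-6 cells. Because each condition was measured once, no condition had a replicate error, and each ratio of a TEC to LSEC compares 2 arrays.

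LSECs came from mouse liver, and TECs came from tumors grown from HAK-1B or KYN-2 cells, which are human hepatoma lines, or from Hepa1-6 cells, a mouse hepatoma line (HAK1B and KYN2 in the labels). The methods describe tumor cells placed in the left liver lobe of female C57BL/6 or BALB/c nu/nu mice that were 6 weeks old when obtained, and capture of CD31-positive cells on magnetic beads. The labels give strain C57BL/6 for LSEC and all 3 TECs and C57L for the Hepa1-6 cells, and no condition carried a drug treatment in the labels. For the tumor line labelled HAK1B, the array paragraph of the methods names another line, so the labels were followed. Each condition was 1 array, and the sources used here do not say whether an array held RNA of 1 mouse or of several.

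Axon guidance proteins steer growing nerve processes by attraction or repulsion and are used again by blood vessels, where the same pairs direct sprouting, separate arteries from veins and set the tightness of the wall. Semaphorins are secreted (class 3) or membrane-held ligands read by plexins, often with a neuropilin as co-receptor, and plexins act on small GTPases and the cytoskeleton. Ephrins are held on the cell surface and meet Eph tyrosine kinases on the neighboring cell, with signals running into both cells. Slits are secreted ligands of Robo receptors, and netrins are laminin-like secreted proteins read by Dcc, neogenin and Unc5 receptors.

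Promoter sequence is shown for 6 members whose levels are described below: Robo4, Plxnd1, Plxnc1 and Ephb4, which were lower in every TEC than in LSEC, and Sema7a and Robo3, which were higher. Each line gives the 250 bases upstream of a transcript start in RefSeq's GRCm38.p6 annotation, 5′ to 3′ along the gene's own strand, and capitals mark every GGAA or its reverse complement TTCC, the core letters that ETS factors bind. The windows lie at chr9:37401722-37401971 (plus strand) for Robo4, chr6:115995006-115995255 (minus) for Plxnd1, chr10:94944846-94945095 (minus) for Plxnc1, chr5:137349859-137350108 (plus) for Ephb4, chr9:57939862-57940111 (plus) for Sema7a and chr9:37433176-37433425 (minus) for Robo3.
Robo4: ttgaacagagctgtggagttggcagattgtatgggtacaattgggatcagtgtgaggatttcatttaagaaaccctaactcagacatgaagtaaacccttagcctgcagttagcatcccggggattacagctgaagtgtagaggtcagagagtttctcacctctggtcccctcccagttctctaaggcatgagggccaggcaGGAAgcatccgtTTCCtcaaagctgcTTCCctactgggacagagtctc
Plxnd1: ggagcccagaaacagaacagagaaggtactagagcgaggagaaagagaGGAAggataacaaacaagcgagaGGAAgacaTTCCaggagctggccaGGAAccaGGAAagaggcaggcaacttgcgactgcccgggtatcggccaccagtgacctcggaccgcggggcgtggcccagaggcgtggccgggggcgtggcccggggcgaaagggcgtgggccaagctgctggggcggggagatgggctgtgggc
Plxnc1: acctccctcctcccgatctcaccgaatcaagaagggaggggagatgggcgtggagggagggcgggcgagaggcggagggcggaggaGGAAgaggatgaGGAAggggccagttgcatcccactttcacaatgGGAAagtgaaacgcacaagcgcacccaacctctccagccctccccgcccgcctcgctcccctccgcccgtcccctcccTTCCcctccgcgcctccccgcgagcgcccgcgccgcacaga
Ephb4: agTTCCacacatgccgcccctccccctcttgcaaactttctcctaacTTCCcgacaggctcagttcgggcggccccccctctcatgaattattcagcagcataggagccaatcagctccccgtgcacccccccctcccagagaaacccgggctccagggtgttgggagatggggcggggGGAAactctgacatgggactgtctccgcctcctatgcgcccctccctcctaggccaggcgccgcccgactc
Sema7a: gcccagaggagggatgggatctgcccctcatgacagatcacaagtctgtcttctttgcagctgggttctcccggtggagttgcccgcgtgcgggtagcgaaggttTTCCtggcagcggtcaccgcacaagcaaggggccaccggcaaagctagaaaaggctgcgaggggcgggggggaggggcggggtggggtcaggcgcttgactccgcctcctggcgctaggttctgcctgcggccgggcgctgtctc
Robo3: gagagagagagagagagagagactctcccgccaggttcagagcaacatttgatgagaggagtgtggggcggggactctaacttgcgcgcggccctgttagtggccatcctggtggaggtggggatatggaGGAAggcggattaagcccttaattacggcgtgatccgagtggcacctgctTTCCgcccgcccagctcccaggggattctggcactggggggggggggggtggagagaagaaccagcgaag
The letters occurred at 3 positions for Robo4, 5 for Plxnd1, 4 for Plxnc1, 3 for Ephb4, 1 for Sema7a and 2 for Robo3, on either strand. Over the 32851 promoter windows of the same length in the table, 93.4% held at least 1 match, with a mean of 2.91, so a match by itself sets no promoter apart. The windows of Plxnd1, Sema7a and Robo3 lie wholly within the gene's annotated span, downstream of its outermost 5′ end. Those of Robo4 and Plxnc1 overlap the span in part. Promoters were found for 57 of the 68 names.

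Signals are given throughout as quantile-normalized log2 intensity, and ratios as log2 differences between 2 arrays, so that 1 unit is a 2-fold difference. Levels of different genes were not compared, since each probe has its own brightness. A probe was taken as measured when the scanner software flagged it well above background. By that flag 48 of the 68 members were measured in LSEC, beside 56.0% of all genes. In the HAK-1B and KYN-2 TECs 51 and 50 were, beside 58.6% and 56.4%. In Hepa1-6 TEC 63 were, beside 79.1%, and in the cultured cells 37, beside 47.2%. All genes were thus also measured most often in Hepa1-6 TEC and least often in the cells. On all 5 arrays 28 members were measured, with no share of all genes to set beside it. The flag reached lower on the Hepa1-6 TEC array, where the dimmest probe called well above background had a log2 signal of 2.85, against 4.28 to 5.96 on the others. Where 1 array of a ratio was not well above background, the difference is given as a bound ("at least"), the brighter array against the higher of the dim probe's own signal and the dimmest measured signal on that array.

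The endothelial identity of the 4 endothelial arrays was checked with 12 pan-endothelial markers, all of which were well above background in LSEC and in each TEC, and with 9 LSEC markers, likewise. In cultured Hepa1-6 cells 5 of the 12 and 1 of the 9 were. The 12 pan-endothelial markers were dimmer in the TECs as a list, although Emcn was 0.15 higher on the log2 scale in KYN-2 TEC: their summed linear signal was 483480 in LSEC, 136940 in KYN-2 TEC, 75963 in Hepa1-6 TEC and 69239 in HAK-1B TEC, with median log2 ratios to LSEC of −1.60, −2.58 and −2.85. In bulk RNA, fewer cells of a type and less RNA per cell cannot be told apart. The Hepa1-6 TEC array also carried hepatoma signal, with Afp, the fetal albumin made by hepatoma cells, at 15.38 against 15.92 in cultured Hepa1-6 cells, and between 6.21 and 8.06 on the 3 other arrays. Neutrophil markers had median log2 ratios of 4.83, 3.56 and 0.84 in TECs of HAK-1B, Hepa1-6 and KYN-2 origin. The 3 TEC arrays shared a slide and LSEC had another, so slide and condition cannot be told apart.

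More of the measured members were lower than higher in HAK-1B TEC and, except under 1 other scaling, in Hepa1-6 TEC, and KYN-2 TEC had about equal numbers. Against LSEC, 21 of 55 members measured on either array were at least 2-fold lower in HAK-1B TEC and 13 were at least 2-fold higher, where 18% and 17.5% of all genes were lower and higher. In Hepa1-6 TEC 24 of 65 were lower (22.1% of all genes) and 15 higher (25% of all genes). In KYN-2 TEC 14 of 53 were lower (18.3% of all genes) and 15 higher (16.9% of all genes). The median log2 ratio of the members was −0.29, −0.19 and −0.01 in the 3 TECs, beside −0.00, 0.09 and −0.05 over all genes tested. These comparisons share 1 LSEC array, so they are not independent of each other. Scaling each array to its 75th percentile moved the median of all genes to 0.42 in Hepa1-6 TEC, −0.16 in HAK-1B TEC and 0.11 in the cultured cells, and the split of the members in Hepa1-6 TEC became 23 higher and 19 lower, where 37.9% and 13.9% of all genes were higher and lower under that scaling.

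**Figure D1:**
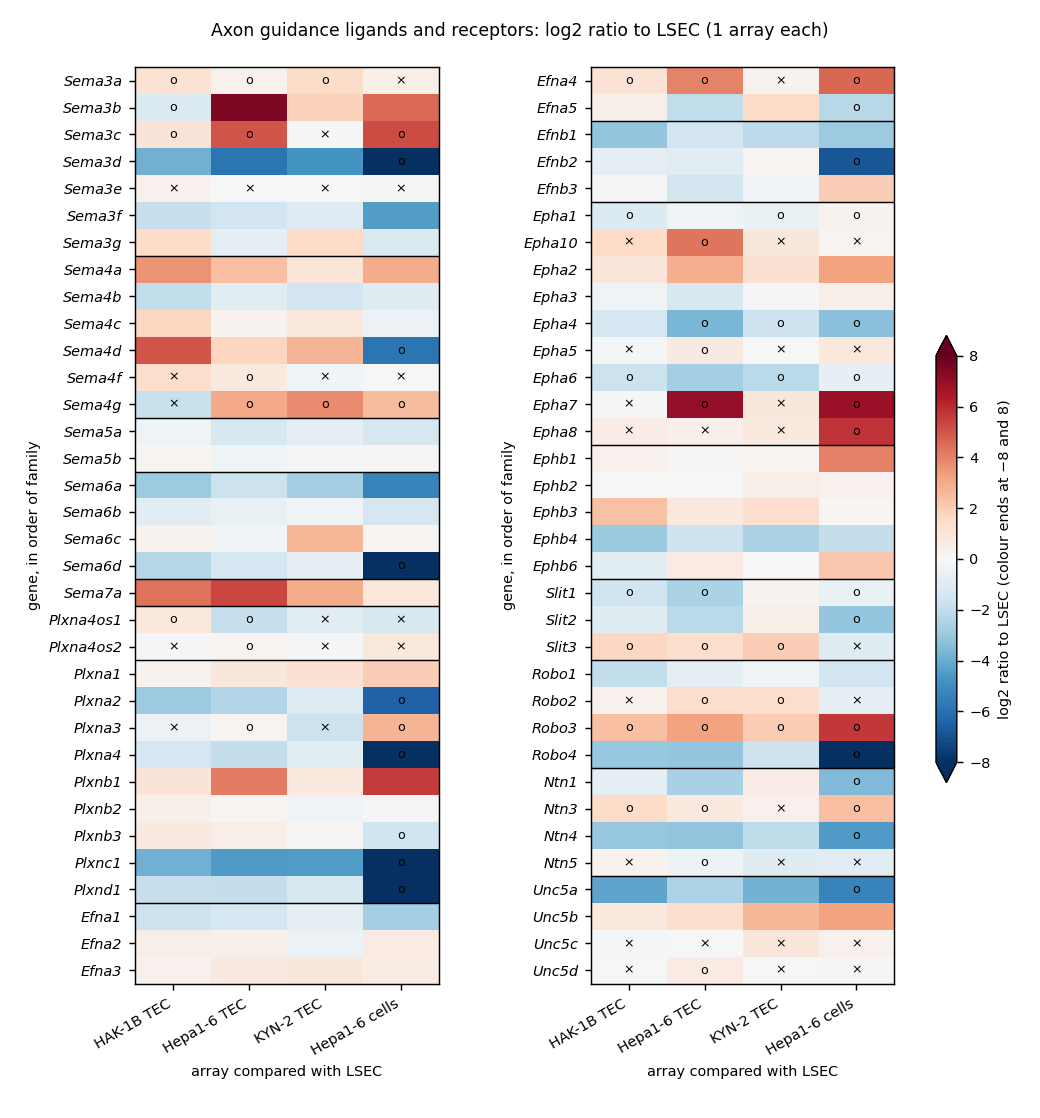
Log2 ratio to LSEC (color, red higher and blue lower, ending at −8 and 8) of all 68 names (rows, grouped by family between black lines) on the 4 other arrays (columns), 1 array each. A circle marks a ratio with 1 of its 2 arrays not well above background and a cross a ratio with neither above it; Sema3d, Plxnc1 and Unc5a are blue in all 3 TECs, Sema7a and Sema4d are red, and the 4th column, cultured Hepa1-6 cells, is dark blue for Plxnd1 and Robo4.

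The stricter rule of the study's methods, a ratio of 1.5 or 0.66 together with a Z-score of 2 or −2, called 12, 10 and 5 members in TECs of HAK-1B, Hepa1-6 and KYN-2 origin. Because the Z-score follows the spread over all probes, it needed a 6.77- to 11.4-fold difference in a TEC. In HAK-1B TEC, 3 members passed upward (Sema4a, Sema4d, Sema7a), beside 3.13% of all genes, and 9 downward (Sema3d, Sema6a, Plxna2, Plxnc1, Efnb1, Ephb4, Robo4, Ntn4, Unc5a), beside 3.96%. In Hepa1-6 TEC, 7 passed upward (Sema3b, Sema3c, Sema7a, Plxnb1, Efna4, Epha7, Epha10), beside 4.48% of all genes, and 3 downward (Sema3d, Plxnc1, Epha4), beside 2.04%. In KYN-2 TEC, 2 passed upward (Sema4g, Sema7a), beside 3.67%, and 3 downward (Sema3d, Plxnc1, Unc5a), beside 2.9%. Sema7a passed upward, and Sema3d and Plxnc1 passed downward, in all 3 TECs, so 1 of 65 members passed upward in every TEC, beside 0.424% of all genes, and 2 downward, beside 0.728%. The rule reads signals below background as they stand: in Hepa1-6 TEC it called Efna4 and Epha10, whose bounds against LSEC were 10.4- and 3.64-fold where 11.4-fold was needed.

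At the 2-fold threshold, 13 of the 65 members measured on at least 1 endothelial array were lower in every TEC than in LSEC, beside 8.27% of all genes, and 4 were higher, beside 5.55%. The 13 were Sema3d, Sema3f, Sema6a, Plxna2, Plxnc1, Plxnd1, Efnb1, Epha4, Epha6, Ephb4, Robo4, Ntn4 and Unc5a, 5 ligands and 8 receptors, and the 4 were Sema4d, Sema7a, Slit3 and Robo3. They came from most families, and no family had more than 3 members in either direction. Of the 13, 8 were within the range of the 12 pan-endothelial markers in each TEC. Each TEC's ratios were also set relative to the median of those markers. By the brightest probe, 2 of the 13 (Sema3d and Plxnc1) were then still at least 2-fold lower in every TEC, beside 0.383% of all genes. The dimmer measured probe of each fell less in all 3 TECs. At least 2-fold higher were 39 of 65 members, as were 71.5% of all genes. The markers' part in the result was not tested. With limma fitted to the 3 TECs as 1 group against the single LSEC array, no member and no gene passed an adjusted p of 0.05 (0 of 65 and 0 of 26905), and 13 members and 9.18% of all genes had an unadjusted limma p under 0.05. Leaving out HAK-1B, Hepa1-6 or KYN-2 TEC raised the 4 higher members to 9, 7 and 9, each time with the 4 among them, and gave 13, 14 and 17 lower. Fewer arrays had to pass there, which makes the call easier for any gene. The matching shares of all genes are not given, so these counts are not a result about the members.

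**Figure D2:**
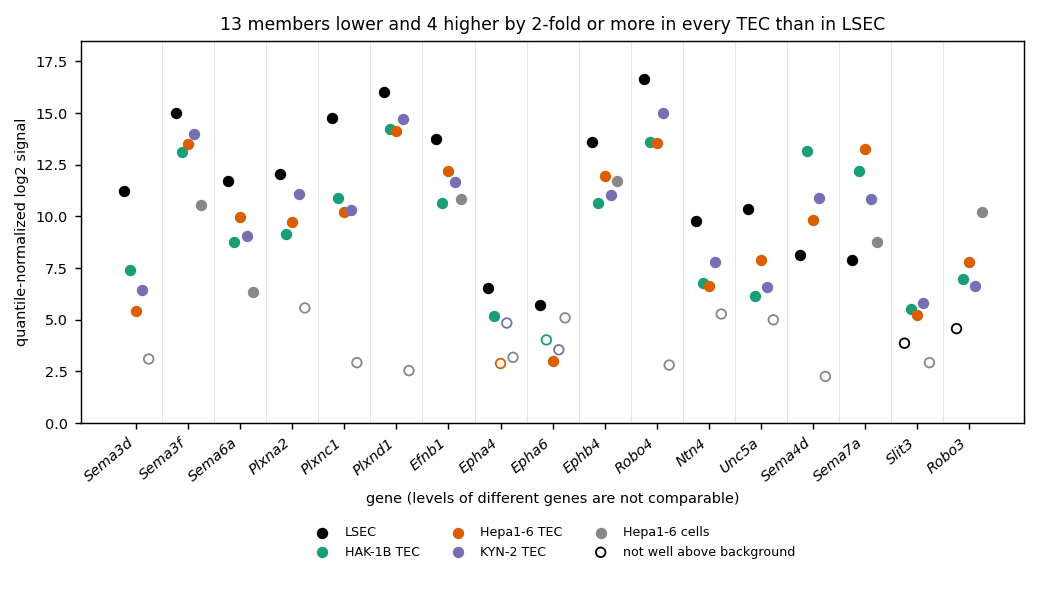
Quantile-normalized log2 signal (vertical axis) of the 13 members lower and the 4 members higher by 2-fold or more in every TEC than in LSEC (horizontal axis), 1 point for each of the 5 arrays, open where not well above background. LSEC (black) is the highest of the endothelial points for the first 13 genes and the lowest for the last 4, and for Epha4, Epha6, Slit3 and Robo3 some of these points are open.

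**Figure D3:**
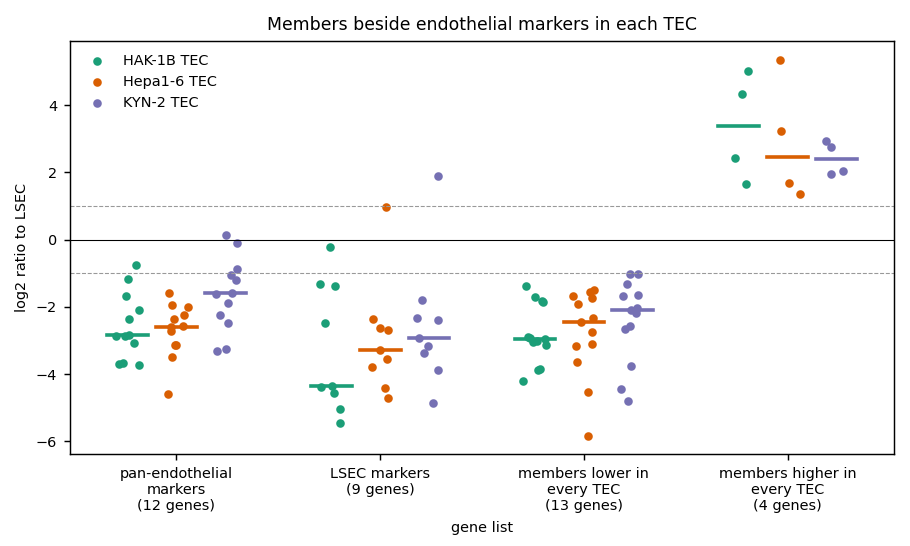
Log2 ratio to LSEC (vertical axis) in the 3 TECs of 12 pan-endothelial markers, 9 LSEC markers, the 13 members lower and the 4 members higher in every TEC (horizontal axis), 1 point a gene, a bar at the median, dashed lines at 2-fold. The lower members span much the same ratios as the pan-endothelial markers, whose medians are −2.85, −2.58 and −1.60. By its brightest probe, the one shown, Sema3d lies below all of those markers in each TEC.

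Among the class 3 semaphorins, secreted ligands that mostly act through neuropilins, Sema3d had, by the brightest probe, the largest mean fall of any member over the 3 TECs. Sema3d was at 11.25 in LSEC, at 7.40, 5.42 and 6.46 in TECs of HAK-1B, Hepa1-6 and KYN-2 origin, and at 3.10, not well above background, in Hepa1-6 cells. LSEC was thus far above the other 4 arrays, and the mean log2 ratio of the TECs was −4.82 ± 0.99 (SD over the 3 TECs). Another measured Sema3d probe fell less, with log2 ratios of −1.23, −1.55 and −2.45 in the TECs in the same order. The values that follow for Sema3d are those of the brightest probe. Its limma unadjusted p was 0.00567 and its adjusted p 0.402. Sema3f was at 14.99 in LSEC, at 13.12, 13.49 and 13.97 in the TECs in the same order, and at 10.55 in Hepa1-6 cells. It fell in every TEC, by 1.02 in KYN-2 TEC, so close to 2-fold that 4 of 7 processing alternatives ended the call. No other class 3 member passed 2-fold in the same direction in all 3 TECs. Sema3b was at 5.47 in LSEC, at 4.33 (not well above background), 12.97 and 7.29 in the TECs, and at 10.02 in Hepa1-6 cells. Hepa1-6 TEC stood above all other arrays for this gene, with a log2 ratio to LSEC of 7.50. Sema3c, a secreted ligand of neuropilins, was at 3.71 in LSEC and 3.61 in KYN-2 TEC, neither well above background, at 8.76 in Hepa1-6 TEC, 8.92 in Hepa1-6 cells and 4.71 in HAK-1B TEC. It was at least 17.0-fold higher in Hepa1-6 TEC than in LSEC and at least 18.9-fold higher in the cultured cells.

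Sema3g, an artery-associated endothelial semaphorin, was at 8.71 in LSEC, at 10.17, 7.94 and 10.27 in TECs of HAK-1B, Hepa1-6 and KYN-2 origin, and at 7.52 in Hepa1-6 cells. The HAK-1B and KYN-2 TECs were above LSEC and Hepa1-6 TEC below it. Sema3a, a repellent of axons and endothelial cells, was at 3.90 (not well above background) in LSEC, at 5.08, 4.24 and 5.35 in the TECs and at 4.35 (not well above background) in Hepa1-6 cells. All 3 TECs were measured where LSEC was not, but the bounds were 1.32-fold for HAK-1B TEC and 1.60-fold for KYN-2 TEC. Sema3e, the ligand that binds Plxnd1 directly, was not well above background on any array, with signals from 2.60 to 2.96.

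Of the 6 class 4 semaphorins, membrane-held ligands, 1 rose at least 2-fold in every TEC and none fell. Sema4d, which is shed by immune cells and acts on Plxnb1, was at 8.13 in LSEC, at 13.14, 9.82 and 10.88 in TECs of HAK-1B, Hepa1-6 and KYN-2 origin, and at 2.26, not well above background, in Hepa1-6 cells. Every TEC was above LSEC, with log2 ratios of 5.01, 1.69 and 2.75. Another measured Sema4d probe had log2 ratios of 4.41, 0.31 and 2.56, under 2-fold in Hepa1-6 TEC. Sema4a was at 9.59 in LSEC, at 13.19, 12.02 and 10.53 in the TECs and at 12.54 in Hepa1-6 cells, and its ratio in KYN-2 TEC, 0.94, was just under 2-fold. Neutrophil markers, at medians of 4.83, 3.56 and 0.84, were also highest in HAK-1B TEC, macrophage markers had medians of 0.14, −1.2 and −1.0, and the part of either in the Sema4d and Sema4a signals was not tested. All 10 macrophage markers were well above background on all 4 endothelial arrays. Sema4g was at 4.12 in LSEC and 2.31 in HAK-1B TEC, neither well above background, and at 7.92, 7.16 and 6.63 in KYN-2 TEC, Hepa1-6 TEC and Hepa1-6 cells. It was at least 9.48-fold higher in KYN-2 TEC and at least 5.58-fold higher in Hepa1-6 TEC than in LSEC. Sema4b was at 8.52 in LSEC, at 6.55, 7.66 and 6.97 in the TECs and at 7.55 in Hepa1-6 cells, lower in all 3 TECs but by 0.87 in Hepa1-6 TEC. Sema4c had log2 ratios from 0.30 to 1.75 in the TECs on its brightest probe and a mean ratio of −0.17 on another, and Sema4f was well above background in Hepa1-6 TEC alone.

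Sema7a, the glycolipid-anchored semaphorin that binds Plxnc1 and integrins, was the member that passed the methods' rule upward in every TEC. It was at 7.89 in LSEC, at 12.22, 13.25 and 10.83 in TECs of HAK-1B, Hepa1-6 and KYN-2 origin, and at 8.74 in Hepa1-6 cells. The TECs were 20.1-, 41.0- and 7.67-fold above LSEC, all 3 stood above both LSEC and the cultured tumor cells, and the limma unadjusted p was 0.0164. In class 6, membrane-held ligands of class A plexins, Sema6a was at 11.72 in LSEC, at 8.78, 9.98 and 9.07 in the TECs and at 6.35 in Hepa1-6 cells. LSEC was the highest array, and all 3 further Sema6a probes that were measured had the same direction. Sema6d was at 12.35 in LSEC, at 10.09, 10.96 and 11.68 in the TECs and at 2.81, not well above background, in Hepa1-6 cells. It was below LSEC in each TEC, by 0.67 in KYN-2 TEC, and at least 83.6-fold lower in the cultured cells. Of 3 further Sema6d probes, 1 had TEC ratios of −2.80, −1.98 and −1.49. Another had −2.80, −1.51 and −1.43, so both were past 2-fold in every TEC, and the last had −1.93, −0.60 and −0.41. Sema6c was at 7.65 in LSEC, at 7.92, 7.45 and 10.30 in the TECs and at 7.82 in Hepa1-6 cells, so that KYN-2 TEC stood apart. Sema6b had log2 ratios between −0.85 and −0.26 in the TECs.

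The class 5 semaphorins, membrane proteins with thrombospondin repeats, had no member changed 2-fold in every TEC by the brightest probe. Sema5a was at 12.13 in LSEC, at 11.79, 10.83 and 11.41 in TECs of HAK-1B, Hepa1-6 and KYN-2 origin, and at 10.80 in Hepa1-6 cells. Sema5b was at 8.15 in LSEC, at 8.35, 7.79 and 7.97 in the TECs and at 8.25 in Hepa1-6 cells. The only ratio past 2-fold among the TECs in this class was that of Sema5a in Hepa1-6 TEC, −1.30, and 2 of 3 further Sema5b probes pointed the other way.

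Of the 9 plexins, the receptors of semaphorins, 3 were at least 2-fold lower in every TEC and none was higher. Plxnc1, the receptor of Sema7a, was at 14.74 in LSEC, at 10.87, 10.20 and 10.30 in TECs of HAK-1B, Hepa1-6 and KYN-2 origin, and at 2.93, not well above background, in Hepa1-6 cells. The TECs lay close together, 14.6-, 23.2- and 21.7-fold below LSEC, with a mean log2 ratio of −4.28 ± 0.36 (SD over the 3 TECs), an unadjusted limma p of 0.00115, the lowest of any member, and an adjusted p of 0.402. The ligand Sema7a and its receptor Plxnc1 thus had opposite directions on all 3 TEC arrays. Plxnd1, an endothelial plexin that receives class 3 semaphorins, was at 16.04 in LSEC, at 14.22, 14.14 and 14.73 in the TECs and at 2.54, not well above background, in Hepa1-6 cells. Plxna2, a receptor for class 6 and, with neuropilins, class 3 semaphorins, was at 12.07 in LSEC, at 9.17, 9.74 and 11.06 in the TECs and at 5.57, not well above background, in Hepa1-6 cells. Both were highest in LSEC, and both calls were near the threshold: 2 of 7 alternatives ended that of Plxnd1 and 4 of 7 that of Plxna2. Plxna4 was at 10.63 in LSEC, at 9.21, 8.74 and 9.71 in the TECs and at 2.67, not well above background, in Hepa1-6 cells, with a ratio of −0.92 in KYN-2 TEC.

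Plxnb1, the receptor of Sema4d, had another pattern. Plxnb1 was at 5.28 in LSEC, at 6.32, 9.35 and 6.04 in TECs of HAK-1B, Hepa1-6 and KYN-2 origin, and at 10.88 in Hepa1-6 cells, the highest of the 5. In Hepa1-6 TEC the ratio to LSEC was 4.07, against 1.04 and 0.76 in the other TECs. Plxna1, Plxnb2 and Plxnb3 were well above background on all 4 endothelial arrays with log2 ratios from −0.26 to 1.22 in the TECs, and Plxna3 was measured in Hepa1-6 TEC and Hepa1-6 cells alone. The opposite-strand transcript Plxna4os1 was at 4.89 in LSEC, at 5.72, 3.04 and 3.96 in TECs of HAK-1B, Hepa1-6 and KYN-2 origin and at 3.58 in Hepa1-6 cells, and was well above background in HAK-1B and Hepa1-6 TEC only. Plxna4os2 was at 3.04, 2.94, 3.24, 2.90 and 3.89 in the same order and was well above background in Hepa1-6 TEC alone.

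None of the 8 ephrins rose by 2-fold in every TEC, and 1, Efnb1, fell. Efnb1, a membrane-spanning ligand of EphB receptors, was at 13.76 in LSEC, at 10.63, 12.21 and 11.68 in TECs of HAK-1B, Hepa1-6 and KYN-2 origin, and at 10.85 in Hepa1-6 cells. LSEC was the highest, and the TECs were 8.79-, 2.93- and 4.24-fold below it. Efnb2, the arterial ephrin, was at 11.34 in LSEC, at 10.57, 10.52 and 11.55 in the TECs and at 4.46, not well above background, in Hepa1-6 cells. Its TEC ratios stayed between −0.82 and 0.21, while the cultured cells were at least 41.5-fold below LSEC. Efna1, an ephrin-A raised by inflammatory signals in endothelium, was at 12.97 in LSEC, at 11.27, 11.54 and 12.21 in the TECs and at 10.25 in Hepa1-6 cells, with −0.76 in KYN-2 TEC. Efna4 was at 4.05 in LSEC and 4.35 in KYN-2 TEC, neither well above background, and at 5.20, 8.05 and 8.66 in HAK-1B TEC, Hepa1-6 TEC and Hepa1-6 cells. It was at least 10.4-fold above LSEC in Hepa1-6 TEC and at least 15.8-fold above it in the cultured cells. Efna2, Efna3 and Efnb3 were measured on all 5 arrays with TEC ratios from −1.47 to 0.91, and Efna5 was measured on the 4 endothelial arrays.

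The venous receptor Ephb4, the partner of Efnb2, was lower in every TEC. Ephb4 was at 13.62 in LSEC, at 10.65, 11.93 and 11.06 in TECs of HAK-1B, Hepa1-6 and KYN-2 origin, and at 11.70 in Hepa1-6 cells. LSEC was highest, the TECs were 7.81-, 3.22- and 5.90-fold below it. Of its further probes, 1 had TEC ratios of −2.57, −1.31 and −1.82 and the other −0.62, −0.71 and 0.33. Ephb3 was at 13.89 in LSEC, at 16.21, 14.70 and 15.21 in the TECs and at 14.07 in Hepa1-6 cells, above LSEC in each TEC but by 0.80 in Hepa1-6 TEC. Ephb1, Ephb2 and Ephb6 had TEC ratios from −0.91 to 0.64, and Ephb1 and Ephb6 had ratios of 4.03 and 2.16 in Hepa1-6 cells. The probes of these genes differed: a dimmer probe of Ephb2 had a ratio of 3.85 in Hepa1-6 TEC, a dimmer probe of Ephb6 had ratios of −2.28, −3.06 and −2.44 in the TECs, which made Ephb6 lower in every TEC once all present probes of a gene were averaged, and a dimmer probe of Ephb1 had ratios of 4.67, 0.37 and 2.99. By the brightest probe 1 of 5 EphB members, Ephb4, passed 2-fold in every TEC.

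EphA receptors were detected less evenly: 5 of 9 were well above background in LSEC, 3 and 2 in the HAK-1B and KYN-2 TECs, 7 in Hepa1-6 TEC and 4 in the cultured cells. Epha2, a receptor of Efna1, was at 10.40 in LSEC, at 11.36, 13.33 and 11.60 in TECs of HAK-1B, Hepa1-6 and KYN-2 origin, and at 13.64 in Hepa1-6 cells. Every TEC was above LSEC, the HAK-1B TEC by 0.96, just under 2-fold. Epha7 was not well above background in LSEC (2.71) or in the KYN-2 (3.62) and HAK-1B (2.65) TECs, and was at 9.72 in Hepa1-6 TEC and 9.65 in Hepa1-6 cells. The last 2 arrays were at least 32.9- and 31.3-fold above LSEC, and all 3 further measured probes of the gene had a positive mean ratio. Epha10 was well above background in Hepa1-6 TEC alone, at 6.54, with 2.26 in LSEC, 3.16 in KYN-2 TEC, 3.86 in HAK-1B TEC and 2.49 in Hepa1-6 cells. Epha8 was well above background in Hepa1-6 cells alone, at 8.15, with 2.38 in LSEC and 2.99, 2.77 and 3.14 in the TECs.

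Epha4, a receptor of both ephrin classes, was at 6.52 in LSEC, at 5.16 in HAK-1B TEC, and at 2.89, 4.84 and 3.18, not well above background, in Hepa1-6 TEC, KYN-2 TEC and Hepa1-6 cells. It was at least 12.4-fold lower in Hepa1-6 TEC and at least 3.20-fold lower in KYN-2 TEC than in LSEC. Epha6 was at 5.73 in LSEC, at 2.99 in Hepa1-6 TEC, and at 3.55, 4.03 and 5.09, not well above background, in KYN-2 TEC, HAK-1B TEC and Hepa1-6 cells. It was at least 2.73- and 2.11-fold lower in HAK-1B and KYN-2 TEC, but another Epha6 probe had a mean TEC ratio of 0.47, so its probes disagreed. Both genes lost the call in every TEC when probes had to be measured on all arrays compared. By their brightest probes Epha1, Epha3 and Epha5 had TEC ratios from −1.30 to 0.71. A dimmer Epha3 probe was at least 2-fold lower in every TEC (−2.28, −1.75 and −1.34), and a dimmer Epha5 probe had 0.09, 0.73 and 0.91.

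The Robo family held a fall and a rise from neighboring genes. Robo4, the endothelial Robo that steadies the vessel wall, was at 16.66 in LSEC, at 13.61, 13.56 and 15.02 in TECs of HAK-1B, Hepa1-6 and KYN-2 origin, and at 2.81, not well above background, in Hepa1-6 cells. LSEC was the highest, the TECs were 8.27-, 8.56- and 3.11-fold below it, and the unadjusted limma p was 0.0309. Robo3, a Robo first known from axons crossing the midline, was at 4.57, not well above background, in LSEC, at 7.0, 7.81 and 6.62 in the TECs and at 10.23 in Hepa1-6 cells, the highest of the 5. Robo3 was at least 4.99-, 8.76- and 3.85-fold above LSEC in the TECs and at least 47.1-fold above it in the cultured cells. Both genes lie on chromosome 9 in GRCm38.p6, Robo4 at chr9:37401902-37414023 and Robo3 at chr9:37416045-37433436, and moved in opposite directions on each TEC array. Robo1 was at 9.62 in LSEC, at 7.63, 8.85 and 9.38 in the TECs and at 8.11 in Hepa1-6 cells. By this brightest probe it was below LSEC in all 3 TECs, but by 0.24 in KYN-2 TEC. The 4 further measured Robo1 probes fell more there, with KYN-2 TEC ratios of −1.83, −2.11, −0.98 and −1.77. The first of them was at least 2-fold lower in every TEC (−1.20, −1.26 and −1.83). Robo2 was measured in Hepa1-6 and KYN-2 TEC alone, and its probes disagreed.

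Signals of the Slits, the Robo ligands, were dim. Slit3 was at 3.87, not well above background, in LSEC, at 5.51, 5.22 and 5.82 in TECs of HAK-1B, Hepa1-6 and KYN-2 origin, and at 2.93, not well above background, in Hepa1-6 cells. All 3 TECs were measured where LSEC was not, but the bounds of 1.78-, 1.45- and 2.20-fold passed 2 in KYN-2 TEC alone. Slit2 was at 5.33 in LSEC, at 4.35, 3.19 and 5.81 in the TECs and at 2.22, not well above background, in Hepa1-6 cells. Slit1 was at 5.17 in LSEC and 5.43 in KYN-2 TEC, and at 3.56, 2.64 and 4.64, not well above background, in HAK-1B TEC, Hepa1-6 TEC and Hepa1-6 cells. For both genes KYN-2 TEC was above LSEC and the other TECs were below it, and for Slit2 another probe pointed the other way.

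Among the netrins, Ntn4, a basement membrane netrin, was lower in every TEC. Ntn4 was at 9.80 in LSEC, at 6.78, 6.64 and 7.78 in TECs of HAK-1B, Hepa1-6 and KYN-2 origin, and at 5.28, not well above background, in Hepa1-6 cells. The TECs were 8.10-, 8.93- and 4.06-fold below LSEC, with an unadjusted limma p of 0.0142. Ntn1, the founding netrin, was at 6.47 in LSEC, at 5.78, 3.85 and 7.06 in the TECs and at 2.95, not well above background, in Hepa1-6 cells, so the TECs lay on both sides of LSEC. Ntn3 was at 4.05 in LSEC and 4.41 in KYN-2 TEC, neither well above background, and at 5.49, 4.83 and 6.44 in HAK-1B TEC, Hepa1-6 TEC and Hepa1-6 cells. Ntn5 was measured in Hepa1-6 TEC alone.

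The netrin receptors Unc5a and Unc5b had opposite directions. Unc5a was at 10.34 in LSEC, at 6.13, 7.89 and 6.57 in TECs of HAK-1B, Hepa1-6 and KYN-2 origin, and at 5.0, not well above background, in Hepa1-6 cells. LSEC was highest, with the TECs 18.6-, 5.49- and 13.6-fold below it. Unc5b, the Unc5 receptor of endothelial tip cells, was at 9.44 in LSEC, at 10.26, 10.77 and 12.11 in the TECs and at 12.67 in Hepa1-6 cells. Every TEC was above LSEC, the HAK-1B TEC by 0.83, and the cultured cells were above all endothelial arrays. Unc5c was not well above background on any array and Unc5d in Hepa1-6 TEC alone.

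Of the 68 members 28 were well above background on all 5 arrays, 15 on all 4 endothelial arrays and not in cultured Hepa1-6 cells, and 1, Epha8, in the cultured cells alone. No share of all genes is given for such classes, here or below, so their counts are not a result about the members. Against LSEC, 25 of 56 members were at least 2-fold lower in the cells, beside 31% of all genes, and 17 were at least 2-fold higher, beside 28.2%. By the methods' rule, which here needed a 39.8-fold rise or a 51.2-fold fall, 9 were lower (Sema3d, Sema4d, Sema6d, Plxna2, Plxna4, Plxnc1, Plxnd1, Efnb2, Robo4), beside 4.85% of all genes, and 4 were higher (Plxnb1, Epha7, Epha8, Robo3), beside 2.57%. The 15 that were not well above background in the cells included Robo4, Plxnd1 and Plxnc1, which were at least 1660-, 1081- and 439.8-fold below LSEC there. The bounds of Sema3d, Sema4d, Plxna4 and Efnb2, from 4.50- to 41.5-fold, and of Epha7 and Epha8, 31.3- and 11.1-fold, lie under what the rule needed. Another 7 (Sema3c, Sema4g, Plxna3, Efna4, Epha7, Robo3, Ntn3) were well above background in Hepa1-6 cells and Hepa1-6 TEC but not in LSEC. Of these 7, 5 were also not measured in KYN-2 TEC, and Robo3 and Sema4g were. In Hepa1-6 TEC, Epha7 was 0.07 above and Sema3c 0.15 below the cultured cells on the log2 scale, and Afp was 15.38 against 15.92. The summed signal of 8 hepatoma markers was 47643 in Hepa1-6 TEC and 74398 in the cells, against 933.7 to 2043 on the other arrays. Afp made up most of the first 2 sums. Only 4 of the 8 markers were well above background in the cells. H19 was not, at 4.87, and was higher in KYN-2 TEC (9.71) than in Hepa1-6 TEC (8.73). The part of hepatoma cells in the Hepa1-6 TEC signal of the 7 members was not tested.

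**Figure D4:**
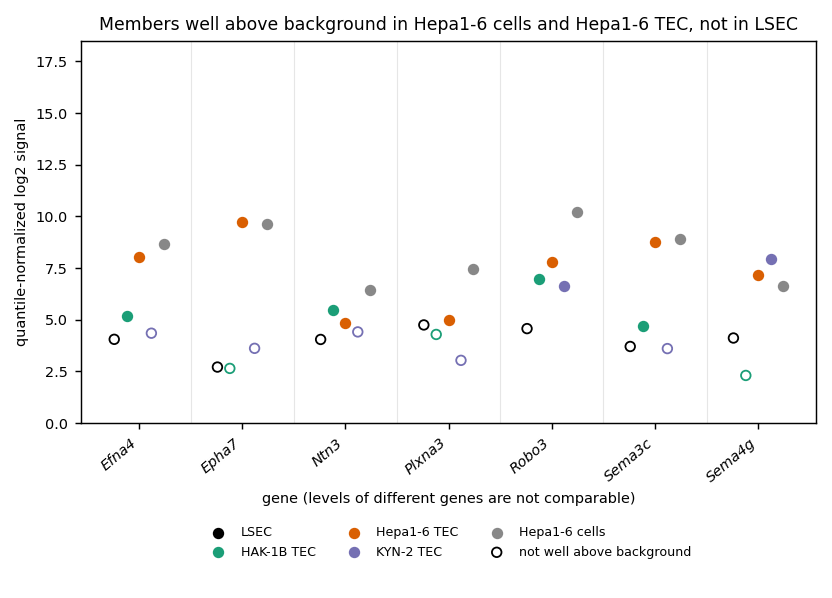
Quantile-normalized log2 signal (vertical axis) of the 7 members well above background in Hepa1-6 cells and Hepa1-6 TEC but not in LSEC (horizontal axis), 1 point for each of the 5 arrays, open where not well above background. Epha7, Sema3c and Efna4 are bright in Hepa1-6 TEC and Hepa1-6 cells, while Robo3 and Sema4g were also measured in KYN-2 TEC.

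Of 47 other genes of axon guidance, chiefly co-receptors, adaptors and regulators of the cytoskeleton, 45 were measured on an endothelial array. By normalized signal 7 of the 45 were at least 2-fold higher in every TEC (Nrp2, Dscam, Flrt3, Ntng1, Mical1, Ablim1, Enah) and 7 lower (Nrp1, Dcc, Farp1, Arhgef12, Srgap1, Nck1, Fyn), beside 5.55% and 8.27% of all genes. Of the 7 higher, Nrp2, Flrt3, Mical1 and Ablim1 were well above background on all 4 arrays. Dscam, Ntng1 and Enah were not in LSEC, and Dscam and Ntng1 were not in KYN-2 TEC either, so no fold applies to those 2 there. Against the LSEC floor, Dscam was at least 2.05-fold higher in HAK-1B TEC and at least 1.80-fold in Hepa1-6 TEC, and Ntng1 had no bound above 1 in either. The neuropilins, co-receptors of class 3 semaphorins, split: Nrp1 was at 15.58 in LSEC and at 13.20 (HAK-1B), 12.53 (Hepa1-6) and 13.45 (KYN-2) in the TECs, and Nrp2 was at 13.69 in LSEC and at 16.22, 14.71 and 15.27 in the same order. Srgap1, a GTPase regulator downstream of Robo receptors, had log2 ratios of −1.99, −2.30 and −1.33 in the TECs. Enah, which drives actin extension at the leading edge, was at 2.29, not well above background, in LSEC and at 6.42, 7.73 and 4.84 in the TECs, which were at least 3.33-, 8.28- and 1.12-fold above it. The median log2 ratio of the 47 genes was −0.21, 0.01 and 0.14 in the 3 TECs. Nerve and Schwann cell markers were checked because the members are also nerve genes: 4 of 10 were well above background in LSEC and 7, 9 and 5 in the TECs, with summed signals of 586.8 and 636.0, 1428 and 769.5. By normalized signal 2 of the 9 measured, S100b and Prph, were at least 2-fold higher in every TEC and 1 was lower, and neither S100b nor Prph was well above background in LSEC or KYN-2 TEC. Prph had a log2 ratio of 7.05 in Hepa1-6 TEC, and Gap43 had ratios of 2.20 in KYN-2 TEC and 4.14 in HAK-1B TEC. In cultured Hepa1-6 cells 4 of the 10 markers were well above background, among them Prph at 8.85 and Gap43 at 6.93. These markers are thus not particular to nerve here. The part of nerve cells in the results was not tested.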

How the data were processed

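RNA of 5 samples was labelled with Cy3 and hybridized to a mouse Agilent array. The authors read the scans with Agilent Feature Extraction (version 9.5.1.1 in the labels and methods, 10.7.1.1 in the file headers) and deposited linear spot intensity values, with the scanner software's background subtraction (gProcessedSignal) and without it (spot mean and local background), beside quality flags. They also deposited a table of normalized intensity values, used as an alternative. Between 54.1% (LSEC) and 78.1% (Hepa1-6 TEC) of 56605 probes were well above background on the endothelial arrays and 44.6% in Hepa1-6 cells, and no spot was saturated. The number of arrays, 1 per condition, limits the precision.

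Control spots and outlier spots were left out, spots of a probe were averaged, and log2 intensity was quantile normalized over the 5 arrays. The 4460 lincRNA probes were left out. A gene was represented by the brightest of its probes on average (154 probes for the 68 members), and a gene entered a comparison when that probe was well above background on an array compared. Of 56 further measured probes of members, 46 had the direction of the probe used, and probes disagreed for Epha6, Ntn5, Plxna3, Plxnb3, Robo2, Sema4c, Sema5b and Slit2. A difference was called at 2-fold, and by the rule of the methods (at least 1.5 with Z of at least 2, or at most 0.66 with Z of at most −2, Z being taken over the probes kept). limma 3.58.1 in R 4.3.3 with Benjamini-Hochberg adjustment compared the 3 TECs with LSEC on 2 residual degrees of freedom, so its p-values measure the spread between different tumors, not between replicates. Scripts were tested on simulated data. Other steps used Python 3.11.15, numpy 2.4.6 and pandas 2.3.3.

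The members, the marker lists and the list of other pathway genes were chosen with earlier results of these data known. Members named with every array's value were set by a rule: the highest and lowest mean TEC ratio in each family, every member 2-fold changed in every TEC or passing the methods' rule, and 20 genes with known vascular roles. Other names and other pathway genes with values were picked after their values were seen. Marker lists covered pan-endothelial cells, LSECs, hepatocytes, hepatoma, macrophages, neutrophils, T and NK cells, fibroblasts, epithelium and nerve. Fcn3 and Trac had no probe under those names. Median log2 ratios in HAK-1B, Hepa1-6 and KYN-2 TEC that the text does not give elsewhere were −4.36, −3.29 and −2.93 for LSEC markers, −3.27, 0.59 and −2.88 for hepatocyte markers, 0.29, 1.93 and 0.66 for hepatoma, 0.18, 0.21 and 0.16 for T and NK cells, 0.28, 2.05 and 1.25 for fibroblasts, −0.01, 4.81 and 1.11 for epithelium and 0.82, 0.26 and 1.14 for nerve. Alternatives were quantile normalization by pair, 75th percentile scaling, normexp with an offset of 50, the deposited table, the mean of a gene's probes, other filters on flags, no Z-score and each TEC left out. Gene positions and promoters were taken from RefSeq tables of GRCm38.p6.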

Additional observations from a re-analysis of the deposited data

Results flagged for a closer look

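Sema3b and Efna5 were at least 2-fold higher than LSEC in 1 TEC and at least 2-fold lower in another. The log2 ratio of Sema3b was −1.14 in HAK-1B TEC, where it was not well above background, 1.82 in KYN-2 TEC, but 7.50 in Hepa1-6 TEC. The log2 ratio of Efna5 was 1.54 in KYN-2 TEC but −1.97 in Hepa1-6 TEC, with signals of 5.14 in LSEC, 6.68 in KYN-2 TEC, 3.17 in Hepa1-6 TEC, 5.62 in HAK-1B TEC and 2.95, not well above background, in Hepa1-6 cells. Each TEC was measured on 1 array and all share the LSEC array, so the difference between tumors was not tested.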

How the results depend on the processing

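Of the 13 members lower in every TEC, 8 (Sema3d, Sema6a, Plxnc1, Efnb1, Ephb4, Robo4, Ntn4, Unc5a) kept the call in all 7 alternatives of normalization, background, probe choice and filter. Sema4d and Sema7a did so among the 4 higher. Robo3 and Slit3 lost the call with normexp and when a probe had to be present on every array compared. That left 2 higher under each, beside 2.72% and 5.27% of all genes. Leaving out a TEC, so that fewer arrays had to pass, gave from 7 to 9 higher, with no share of all genes to set beside it. Relative to the pan-endothelial markers, an alternative chosen after seeing the data, 39 of 65 members were higher and 2 lower in every TEC, beside 71.5% and 0.383% of all genes. With normexp, 9 of 53 members were higher in KYN-2 TEC, beside 10.5% of all genes, and 7 of 55 in HAK-1B TEC, beside 10.2%. The methods' rule then called 11 of 53 in KYN-2 TEC, beside 6.57% of all genes. The median of the members over the 3 TECs was −0.0030 with normexp, against −0.09 ± 0.09 (SD over the 3 TECs) before. With probes present on every array compared, 7 of 46 members were higher in Hepa1-6 TEC, beside 14.7% of all genes. In HAK-1B TEC 7 of 44 were higher, beside 13.4%. In Hepa1-6 cells 9 of 29 were higher, beside 29.5%, and 9 lower, beside 19.6%. Under that filter the methods' rule called 9 of 45 in KYN-2 TEC, 6 of 46 in Hepa1-6 TEC and 5 of 29 in the cultured cells. Of all genes it called 6.4%, 6.07% and 6.63%. The median of the members was −0.45, beside −0.09 over all genes. Without a filter the rule called 10 of 68 in KYN-2 TEC, beside 6.19% of all genes. With 75th percentile scaling 23 of 65 members were higher in Hepa1-6 TEC, beside 37.9% of all genes. The rule then called 7 of 55 in HAK-1B TEC, beside 7.22% of all genes. Without the Z-score the rule's ratio alone called 51 of 65 members in Hepa1-6 TEC, 38 of 53 in KYN-2 TEC, 43 of 55 in HAK-1B TEC and 46 of 56 in the cultured cells, beside 66.2%, 54.6%, 53.6% and 73.9% of all genes. Averaging the present probes of a gene added Ephb6 to the lower members and Sema3a and Sema3c to the higher, and 75th percentile scaling added Sema3a and Epha2 to the higher. No limma alternative that was run called a member at an adjusted p of 0.05. Of 799 recomputed ratios of the 47 named members, in the TECs and in Hepa1-6 cells, 725 were classed as the same and 74 as moved. For the mean of the TECs the limit was the spread over the TECs, and for Hepa1-6 cells it was another one. No called ratio changed sign. No paired analysis was possible because no condition was measured more than once. A block for slide could not be fitted, since the slides differ with the conditions. Probes near background carry bounds only, and single arrays leave the error within a condition unknown.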
